A study of Mus musculus with 6 samples.

Results

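The genes described here are 10 targets of the tumour suppressor p53: Btg2, Trp53inp1, Zmat3, Plk3, Plk2, Ccng1, Sesn1, Phlda3, Eda2r and Rrm2b. They were chosen by name, and all 10 were measured among the 19938 genes that whole-transcript Affymetrix arrays of mouse cells reported, each by 1 probe set. The cells were pre-B cells of the C57Bl/6 strain, transformed with the BCR-ABL1 fusion kinase as a model of acute lymphoblastic leukaemia, and in every group their single X chromosome, being from a male, bore floxed Bcor (Bcor fl/Y). The 3 Cre-ERT2 arrays came from cells transduced with PMIP-CRE-ERT2, which encodes a Cre recombinase that tamoxifen activates, and the 3 ERT2 arrays from cells transduced with PMIP-ERT2, which lacks Cre. All cells received 4-hydroxytamoxifen at 0.5 micromolar for 2 days and were resistant to puromycin when RNA was taken. The labels do not say how many mice or clones the cells came from, nor that the arrays of a group were separate cultures, so the p-values measure the spread between these arrays, which may be technical. Active Cre and loss of Bcor came together in the same arrays, and their effects cannot be told apart in this design.

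p53 is a transcription factor that stress signals such as DNA breaks release from its inhibitor MDM2. It then binds paired half-sites in DNA and switches on genes that stop the cell cycle, repair DNA, adjust metabolism or kill the cell, among them Mdm2 itself. Pre-B cells cut their own DNA when they rearrange immunoglobulin genes, and BCL6, a repressor that works with BCOR, is known to hold p53 expression down in B-lineage cells.

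The 10 genes did not move as a block. Btg2, Trp53inp1 and Zmat3 rose, Plk3 and Rrm2b fell, and Plk2, Ccng1, Sesn1, Phlda3 and Eda2r did not pass the test (limma, Benjamini-Hochberg adjusted p under 0.05 over all genes). Thus 5 of 10 genes were called, where 7.03% of all genes were called, and these 10 genes had been picked with earlier results of the same arrays known. The share called higher was 4.05% over all genes and the share called lower 2.98%. The median log2 fold change of the 10 genes was 0.016, against -0.037 over all genes.

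**Figure D1:**
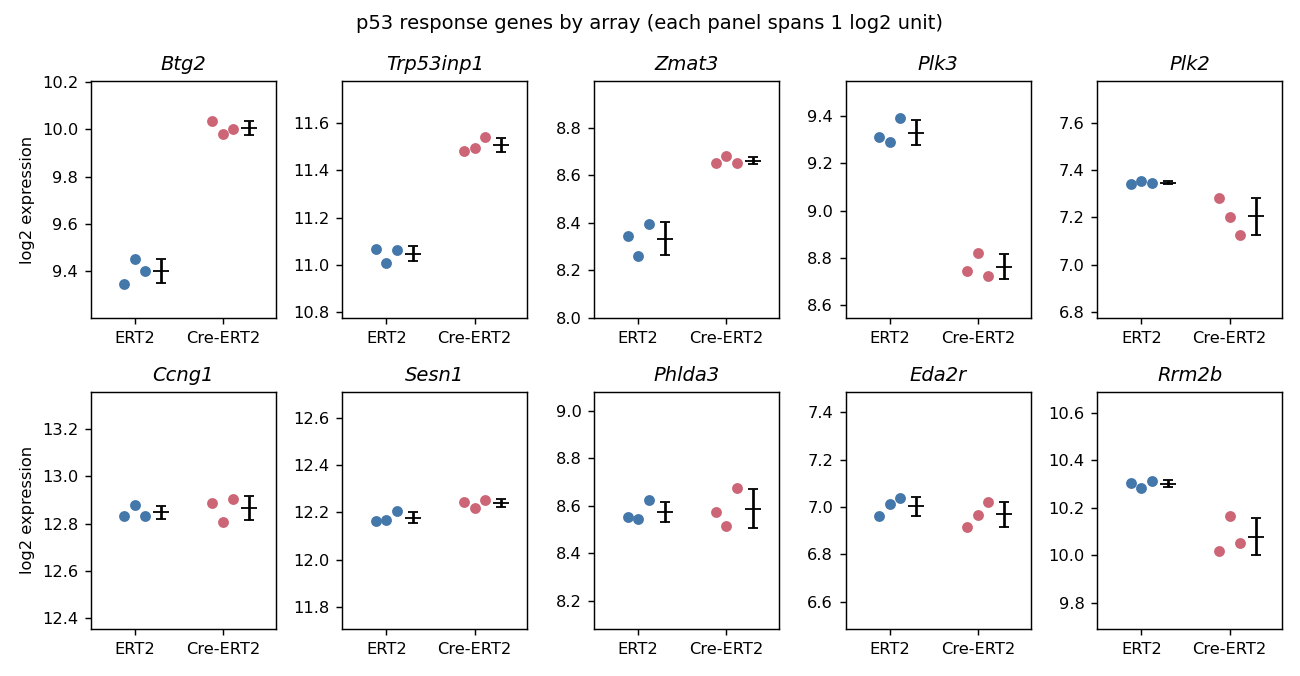
Log2 expression of each of the 10 genes on each array, with the 3 ERT2 arrays in blue, the 3 Cre-ERT2 arrays in red, and the mean and SD of each group in black; every panel spans 1 log2 unit. Btg2, Trp53inp1 and Zmat3 lie higher on all 3 Cre-ERT2 arrays, Plk3 and Rrm2b lie lower, and Ccng1, Phlda3 and Eda2r overlap.

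The stretches of DNA before the members' annotated starts differed in the motifs they held. RefSeq sequences on GRCm38.p6, each the 250 bases before an annotated start, were found for 7 of the 10 genes: Btg2, Plk3, Plk2, Ccng1, Sesn1, Phlda3 and Eda2r. Those of Ccng1 and Eda2r reached into the gene's outer limits, and the stretch before the second start of Sesn1 lay within them. All the stretches are called sequences below. The sequences were searched for the p53 half-site consensus, a palindromic decamer that reads the same on both strands. An exact half-site was present for 2 of these 7 genes, Ccng1 and Sesn1, and in 7.13% of 32851 such stretches of all genes. The shares over all genes count stretches and not genes, and of the 2 stretches of Sesn1 only the second held a half-site. The 7 genes were chosen as p53 targets, so their count is not independent of the choice. Ccng1 and Sesn1 also held a pair of half-sites at most 13 bases apart with at most 2 mismatches in all, as did 3.34% of all stretches. Ccng1 held 2 such pairs that shared a half-site, one at positions -195 to -176 relative to the start with no base between the half-sites and 1 mismatch, the other at -200 to -176 with a spacer of 5 bases and 2 mismatches. Sesn1, which has 2 starts, likewise held 2 pairs that shared a half-site before its second start, at -186 to -164 with a spacer of 3 bases and at -173 to -149 with a spacer of 5, each with 2 mismatches. Both are shown because they carry the letters closest to a p53 element, and capitals mark every half-site that belongs to such a pair. Neither Ccng1 nor Sesn1 passed the test.
Ccng1, chr11:40755287-40755536, minus strand: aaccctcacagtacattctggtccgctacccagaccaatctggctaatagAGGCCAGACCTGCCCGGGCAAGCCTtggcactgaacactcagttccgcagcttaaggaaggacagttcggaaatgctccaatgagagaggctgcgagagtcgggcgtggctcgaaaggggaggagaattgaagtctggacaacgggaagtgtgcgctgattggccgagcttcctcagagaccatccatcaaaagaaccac
Sesn1, second start, chr10:41887189-41887438, plus strand: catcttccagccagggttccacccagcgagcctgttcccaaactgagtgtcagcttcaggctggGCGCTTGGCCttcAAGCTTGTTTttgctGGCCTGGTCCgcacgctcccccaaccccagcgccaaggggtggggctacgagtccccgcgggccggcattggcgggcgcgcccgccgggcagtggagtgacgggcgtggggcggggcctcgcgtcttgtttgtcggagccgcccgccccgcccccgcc

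Btg2 and Plk3, the members with the largest rise and the largest fall, had no such pair in this window, and neither had Plk2. After these sequences had been read, they were also searched on both strands for TGACGT, the core of the cyclic AMP response element. The hexamer was present for Btg2, Plk3 and Plk2 and not for Ccng1, Sesn1, Phlda3 or Eda2r, and in 6.47% of all stretches. That share counts stretches and not genes, and the members' count is not independent of the earlier reading of their sequences. Btg2 and Plk2 held the full palindrome TGACGTCA, which contains the hexamer on both strands and was found in 1.55% of all stretches. It began at -166 in Btg2 and at -62 in Plk2, and the hexamer of Plk3 began at -132. Of these 3 genes with the same core, Btg2 rose, Plk3 fell and Plk2, at -0.14, did not pass the test, and differences between them were not tested. A match describes letters and was not tested as a binding site. Capitals mark the hexamer or the palindrome.
Btg2, chr1:134079156-134079405, minus strand: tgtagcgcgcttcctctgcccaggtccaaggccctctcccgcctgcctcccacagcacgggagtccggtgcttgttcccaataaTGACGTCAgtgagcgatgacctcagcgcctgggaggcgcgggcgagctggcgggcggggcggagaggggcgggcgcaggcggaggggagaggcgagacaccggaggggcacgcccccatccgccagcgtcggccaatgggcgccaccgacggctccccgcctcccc
Plk3, chr4:117133964-117134213, minus strand: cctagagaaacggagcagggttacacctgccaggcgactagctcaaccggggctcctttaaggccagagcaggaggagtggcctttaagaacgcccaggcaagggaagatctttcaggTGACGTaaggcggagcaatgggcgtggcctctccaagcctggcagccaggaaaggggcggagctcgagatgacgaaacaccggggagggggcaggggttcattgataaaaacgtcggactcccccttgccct
Plk2, chr13:110394794-110395043, plus strand: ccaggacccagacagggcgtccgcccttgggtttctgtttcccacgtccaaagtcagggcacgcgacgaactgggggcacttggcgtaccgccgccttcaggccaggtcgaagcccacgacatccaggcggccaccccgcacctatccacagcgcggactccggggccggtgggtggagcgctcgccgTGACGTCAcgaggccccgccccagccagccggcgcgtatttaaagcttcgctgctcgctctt

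Among the genes of growth arrest, Btg2 (probe set 10357875) encodes an antiproliferative protein that recruits the enzymes which shorten mRNA tails. Its log2 expression was 9.35, 9.45 and 9.40 on the ERT2 arrays and 10.04, 9.98 and 10.001 on the Cre-ERT2 arrays. The groups were 0.53 log2 units apart at their closest, and no array of either group came near the other. The means were 9.40 ± 0.0513 and 10.005 ± 0.0290 (SD, n = 3 arrays each), a 1.52-fold rise (log2 fold change 0.60, SE 0.0417, adjusted p = 8.28e-05). Among all 19938 genes it ranked 93 from the largest rise down.

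Plk3 (probe set 10515399), a polo-like kinase that stress activates and that phosphorylates p53, went the other way. It read 9.31, 9.29 and 9.39 with ERT2 and 8.74, 8.82 and 8.72 with Cre-ERT2. Again the groups were well apart, by 0.47 at their closest. From 9.33 ± 0.0545 to 8.76 ± 0.0524 (SD, n = 3 each) the level fell by 0.57 on the log2 scale (SE 0.0457, adjusted p = 0.000190), which ranked 24 from the largest fall.

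Plk2 (probe set 10407126), a relative of Plk3 that acts in centriole duplication, was at 7.34, 7.35 and 7.34 on the ERT2 arrays. The Cre-ERT2 arrays gave 7.28, 7.20 and 7.13, all below the ERT2 arrays, but by 0.0592 only at the closest. The ERT2 arrays were tightly grouped (SD 0.0064) and the Cre-ERT2 arrays more spread (SD 0.0782). The difference of -0.14 (95% interval -0.25 to -0.036) did not pass the test (adjusted p = 0.114). All values of Plk2 lay below the medians of the arrays (8.61 to 8.68), and whether they came from background signal was not tested.

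Ccng1 (probe set 10385271) encodes cyclin G1, which helps a phosphatase act on MDM2 and so feeds back on p53. Its values were 12.83, 12.88 and 12.83 in ERT2 cells and 12.89, 12.81 and 12.90 in Cre-ERT2 cells. The groups overlapped, with the lowest and the highest of the 6 values both from Cre-ERT2 arrays. The difference was 0.018 (95% interval -0.077 to 0.11, adjusted p = 0.829), and it turned to -0.0011 without Cre-ERT2 replicate 3.

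Of the members that act on cell death and survival, Trp53inp1 (probe set 10503259) encodes a stress-induced protein that promotes p53 activity and autophagy. It read 11.07, 11.01 and 11.06 on the ERT2 arrays and 11.48, 11.49 and 11.54 on the Cre-ERT2 arrays. The spread within a group was small beside the distance of 0.42 between the groups. The means of 11.05 ± 0.0321 and 11.50 ± 0.0295 (SD, n = 3 each) gave a 1.37-fold rise (log2 fold change 0.46, SE 0.0387, adjusted p = 0.000229).

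Zmat3 (probe set 10497673), a zinc finger protein that binds RNA and shapes the splicing and stability of p53 pathway transcripts, also rose. Its ERT2 values of 8.34, 8.26 and 8.40 varied more than its Cre-ERT2 values of 8.65, 8.68 and 8.65. The closest arrays of the groups were 0.26 apart. The rise was 1.26-fold, from 8.33 ± 0.0694 to 8.66 ± 0.0163 (SD, n = 3 each, log2 fold change 0.33, SE 0.0446, adjusted p = 0.00298).

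Phlda3 (probe set 10350146), which competes with the survival kinase AKT for membrane lipids, gave 8.55, 8.54 and 8.62 with ERT2 and 8.57, 8.52 and 8.68 with Cre-ERT2. These groups overlapped. The difference was 0.015 (95% interval -0.099 to 0.13, adjusted p = 0.885), and its sign turned with array weights (-0.0073) and without ERT2 replicate 2 (-0.00025) or Cre-ERT2 replicate 3 (-0.029). Eda2r (probe set 10605874), a receptor of the tumour necrosis factor receptor superfamily that binds the ectodysplasin form EDA-A2, gave 6.96, 7.01 and 7.04 with ERT2 and 6.92, 6.97 and 7.02 with Cre-ERT2. It too overlapped between groups, with a difference of -0.034 (95% interval -0.13 to 0.065, adjusted p = 0.671), which was 0.010 after cyclic loess. The values of Eda2r lay below the medians of the arrays (8.61 to 8.68), and whether they came from background signal was not tested.

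The remaining members serve metabolism and the supply of nucleotides. Sesn1 (probe set 10362811) encodes sestrin 1, which restrains the growth kinase complex mTORC1. It read 12.16, 12.17 and 12.21 in ERT2 cells and 12.24, 12.22 and 12.25 in Cre-ERT2 cells. Every Cre-ERT2 array lay above the ERT2 arrays, by 0.0135 at the closest, which is less than the SD of either group (0.0241 and 0.0174). The difference was 0.061 (95% interval -0.023 to 0.14, adjusted p = 0.356).

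Rrm2b (probe set 10428232) encodes the p53-inducible small subunit of ribonucleotide reductase, which makes deoxynucleotides for repair outside S phase. Its level was 10.30, 10.29 and 10.31 on the ERT2 arrays and 10.02, 10.17 and 10.05 on the Cre-ERT2 arrays. All Cre-ERT2 arrays were lower, by 0.12 at the closest, with Cre-ERT2 replicate 2 the nearest to the controls. It fell by 0.22 on the log2 scale (SE 0.0466, n = 3 each, adjusted p = 0.0239), from 10.30 ± 0.0150 to 10.08 ± 0.0775 (SD). Leaving out any array except Cre-ERT2 replicate 2 removed the call (highest adjusted p 0.0880).

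**Figure D2:**
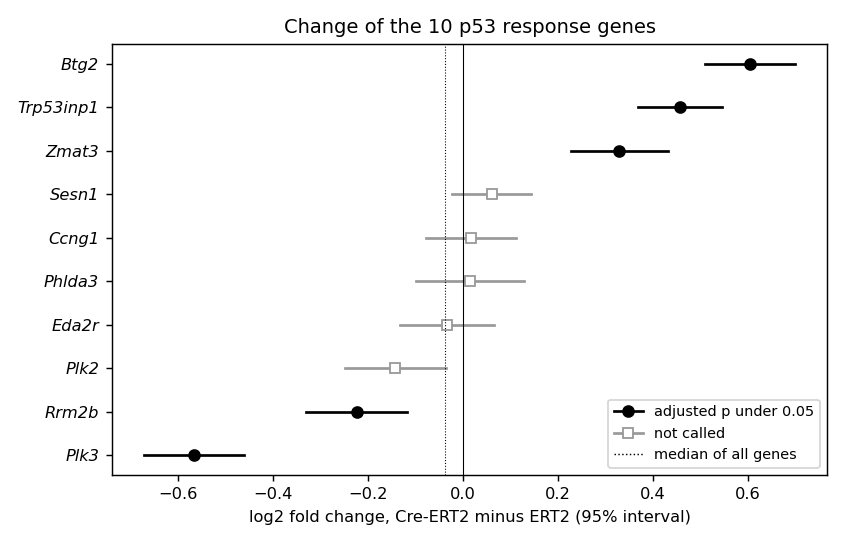
Log2 fold change of each gene, Cre-ERT2 minus ERT2, with its 95% interval from limma; filled circles passed an adjusted p of 0.05, open squares did not, and the dotted line is the median of all genes at -0.037. The order runs from Btg2 at 0.60 to Plk3 at -0.57, and the interval of Plk2 ends just below 0 (-0.036).

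In the order of their changes, the 3 risers had intervals from 0.23 (the lower end for Zmat3) to 0.70 (the upper end for Btg2). The intervals of Btg2 and Trp53inp1 overlapped, as did those of Trp53inp1 and Zmat3. The next members, Sesn1, Ccng1, Phlda3 and Eda2r, had intervals that all held 0. The interval of Plk3 (-0.67 to -0.46) lay below that of Rrm2b (-0.33 to -0.12), which overlapped with that of Plk2. Groups did not overlap for 7 of the 10 genes, 4 higher (the 3 risers and Sesn1) and 3 lower (the 2 that fell and Plk2). Over all genes 29.9% did not overlap, 9.56% higher and 20.3% lower.

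**Figure D3:**
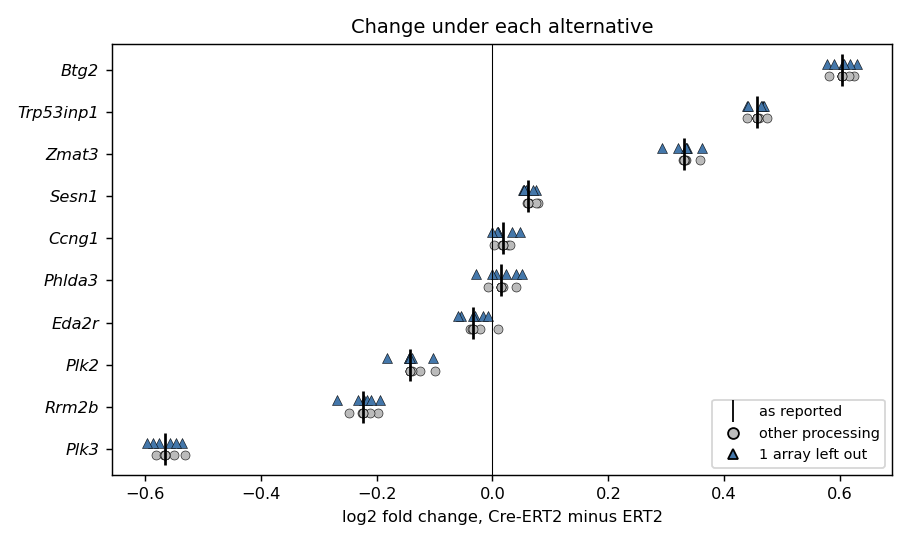
Log2 fold change of each gene as reported (black bar), under other normalizations, weights, variance models and probe set summaries (grey circles) and with 1 array left out (blue triangles). Btg2 ranged from 0.58 to 0.63 and Plk3 from -0.60 to -0.53, while Ccng1, Phlda3 and Eda2r lay on both sides of 0.

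The wider p53 programme was read from 3 further lists with 60 genes, of which 54 were measured: 4 rose, 2 fell and 48 did not pass. That is 11.1% called, against 7.03% of all genes, with a median log2 fold change of -0.022. The lists were chosen with earlier results of these data known, so this share is not independent of the choice. Among 18 other targets in arrest and feedback, 2 rose and 0 fell (11.1% called, against 7.03% of all genes). Both risers were of the GADD45 family of stress sensors. Gadd45b, which NF-kB is also known to induce, rose 1.77-fold (10.004 ± 0.135 to 10.83 ± 0.0774, SD, n = 3 each, adjusted p = 0.000245). Gadd45g rose by 0.29 (SE 0.0585), a call lost when ERT2 replicate 3, or replicates 1 or 2 of Cre-ERT2, were left out one at a time (highest adjusted p 0.0768). The third relative, Gadd45a, which is the classical p53 target of the family, was at 0.063 (adjusted p = 0.645) and was named after its values were seen.

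Mdm2, the p53 inhibitor that p53 itself induces, was at -0.11 (95% interval -0.21 to -0.014, adjusted p = 0.164). The phosphatase gene Ppm1d, another feedback target, was at -0.11 as well (adjusted p = 0.214). The death genes Bbc3, which encodes PUMA, and Pmaip1, which encodes NOXA, were at -0.067 (adjusted p = 0.327) and 0.025 (adjusted p = 0.762). Their 95% intervals were -0.15 to 0.019 and -0.073 to 0.12. Ddb2, a sensor of damaged DNA, was at 0.14 (95% interval 0.044 to 0.23, adjusted p = 0.0903). The p53 inhibitor gene Mdm4 was at -0.17 (adjusted p = 0.126), the nuclease gene Aen at -0.022 (adjusted p = 0.816) and the membrane protein gene Perp at -0.088 (adjusted p = 0.517). All Cre-ERT2 arrays lay above the ERT2 arrays for Ddb2 and below them for Mdm2 and Bbc3, and the groups overlapped for the others. Over all genes, 9.56% were so separated with Cre-ERT2 higher and 20.3% with Cre-ERT2 lower. These 8 genes were named after their values were seen, as standard readouts of p53 activity or, for Mdm4, its control. Cdkn1a, which encodes the arrest protein p21, shares its probe set with another gene symbol and is not analysed here, and neither is Trp53.

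Of 17 cell death targets, 1 rose and 1 fell (11.8% called, against 7.03% of all genes). Trp53i11, a p53-induced gene, rose by 0.29 (SE 0.0398, adjusted p = 0.00332). The death receptor gene Fas fell by 0.19 (SE 0.0469, adjusted p = 0.0483), and leaving out any single array removed this call (highest adjusted p 0.152), as did an intensity trend (0.0539) and cyclic loess (0.0967). Of 19 targets in DNA repair and metabolism, 1 rose and 1 fell (10.5% called, against 7.03% of all genes). The peptide transporter gene Tap1 rose by 0.22 (SE 0.0386) and Sesn2, the stress-induced relative of Sesn1, fell by 0.32 (SE 0.0645). Tap1 lost its call when replicate 1 of either group was left out (highest adjusted p 0.0654), and Sesn2 when ERT2 replicates 2 or 3, or replicates 1 or 2 of Cre-ERT2, were left out (highest 0.0779).

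Of 23 genes for p53's relatives, activating kinases and modifiers, 1 rose and 22 did not pass (4.35% called, against 7.03% of all genes). It was Hipk2, a nuclear kinase that phosphorylates p53 after severe DNA damage. Hipk2 read 11.41, 11.33 and 11.35 on the ERT2 arrays and 11.84, 11.86 and 11.96 on the Cre-ERT2 arrays, with no overlap. It rose 1.44-fold (log2 fold change 0.52, SE 0.0462, adjusted p = 0.000288).

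**Figure D4:**
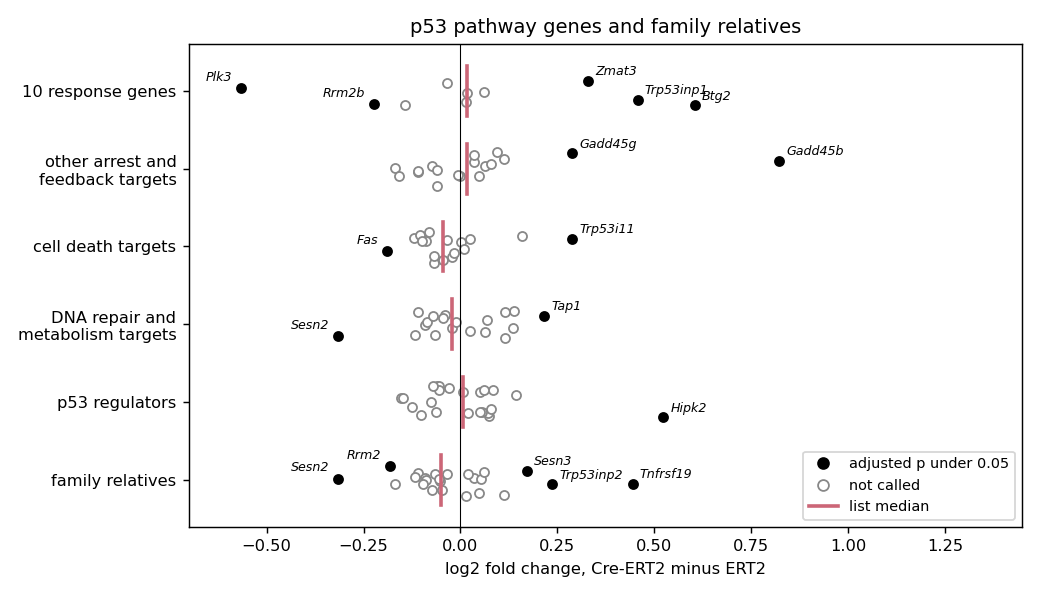
Log2 fold change, Cre-ERT2 minus ERT2, of every measured gene in the 10-gene set, 3 lists of other p53 targets, the p53 regulators and the members' family relatives; filled points passed an adjusted p of 0.05 and carry their names, and red bars are list medians. Most of the other targets lie close to 0 (medians 0.016, -0.046 and -0.021), and Gadd45b at 0.82 has the largest value shown.

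The members' own gene families held 24 other measured genes, of which 3 rose, 2 fell and 19 did not pass (20.8% called, against 7.03% of all genes, median -0.050). These relatives were listed with earlier results of these data known, so that share is not independent of the choice. Trp53inp2, the autophagy relative of Trp53inp1, rose by 0.24 (SE 0.0378, adjusted p = 0.00682), in the same direction as Trp53inp1. Btg1, the closest relative of Btg2, was at 0.035 (adjusted p = 0.593). Tnfrsf19, a receptor related to Eda2r, rose 1.36-fold (log2 fold change 0.44, SE 0.0570, adjusted p = 0.00233), from 10.20 ± 0.0602 to 10.64 ± 0.0978 (SD, n = 3 each). Differences between relatives were not tested.

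The sestrin genes spread in both directions: Sesn2 fell, Sesn1 was not called, and Sesn3 rose by 0.17 (SE 0.0396, adjusted p = 0.0378). Leaving out any single array removed the Sesn3 call (highest adjusted p 0.121), and so did quantile normalization (0.0614) and median centring (0.0618). For ribonucleotide reductase, Rrm2, the small subunit that cells use in S phase, fell by 0.18 (SE 0.0355, adjusted p = 0.0185), a call lost when replicates 1 or 2 of either group were left out one at a time (highest 0.0948). The large subunit gene Rrm1 was at -0.096 (adjusted p = 0.164), and with an intensity trend it passed (0.0318). Rrm2b and Rrm2 are close in sequence, and whether their probes read each other was not tested. The mitotic kinase gene Plk1 was at -0.092 (adjusted p = 0.182) and Plk4, which builds centrioles, at -0.075 (adjusted p = 0.259), beside the called fall of Plk3. Ccng2 was at 0.049 (adjusted p = 0.563) and Phlda1 at -0.17 (adjusted p = 0.181).

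Btg2, Plk2 and Plk3 are also known as immediate early genes, which growth factors and stress induce within minutes. Of 25 other immediate early genes, 2 rose, 2 fell and 21 did not pass (16% called, against 7.03% of all genes, median 0.019). Jun rose by 0.31 (SE 0.0370, adjusted p = 0.00167) and Fosb by 0.19 (SE 0.0422, adjusted p = 0.0286), while Atf3 fell by 0.27 (SE 0.0592, adjusted p = 0.0318) and Egr1 by 0.25 (SE 0.0512, adjusted p = 0.0209). Of these 4, Jun alone kept its call whichever array was left out. Fosb lost it for every array except Cre-ERT2 replicate 3 (highest adjusted p 0.0985), Atf3 for every array except ERT2 replicate 2 (0.127), and Egr1 for replicate 1 of either group, ERT2 replicate 3 and Cre-ERT2 replicate 2 (0.0892). Quantile normalization (0.0956) and median centring (0.0645) also removed the call of Fosb. FOXO factors are also known to induce Sesn1. A further list of 17 measured genes held FOXO targets of B cells together with the factors Foxo1 and Foxo3 themselves. Of these 17 genes, 4 rose and 4 fell (47.1% called, against 7.03% of all genes, median 0.030). This list and the immediate early list were chosen with earlier results known, so their shares are not independent of the choice. The factor Foxo1 was among those that fell (log2 fold change -0.26, adjusted p = 0.0240), and it was named after its values were seen. The largest changes of the list were those of Rag2 (-0.71), Il7r (-0.60), Rag1 (-0.38) and S1pr1 (0.37), with adjusted p between 4.54e-05 and 0.00216.

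For the series as a whole, Bcor fell by 0.96 on the log2 scale (SE 0.0491, adjusted p = 2.11e-05), from 10.12 ± 0.0517 to 9.16 ± 0.0716 (SD, n = 3 each). The medians of the 6 arrays lay between 8.61 and 8.68. Of all genes 808 were higher and 594 lower, so that 57.6% of calls were higher, while 67.9% were after cyclic loess (962 higher, 455 lower) and 39.4% with array weights (1315 higher, 2024 lower). Without ERT2 replicate 1 or 2 the count of 1402 calls dropped to 770 and 934, and without Cre-ERT2 replicate 1 or 2 to 804 and 743. The cell type label was checked on 11 pre-B markers, led by Igll1 (14.20 and 14.25 in ERT2 and Cre-ERT2) and Cd79b (13.52 and 13.62). Their summed linear level was 72389 to 73700 in ERT2 and 73847 to 74960 in Cre-ERT2. Of the 11 pre-B markers 3 were called (27.3%, against 7.03% of all genes). Terminal transferase Dntt rose by 0.86 (adjusted p = 0.000250) and Cd22 by 0.27 (adjusted p = 0.00707), both named after their values were seen, and Rag1 fell by 0.38. For 12 myeloid markers, led by Lyz2 (9.76 and 10.21) and Cd68 (9.41 and 9.46), the sum was 3796 to 3966 and 4125 to 4174. Lyz2 was the only one of these 12 called (8.33%), with a log2 fold change of 0.45 (SE 0.0662, adjusted p = 0.00488). Of these 12, 7 had log2 fold changes below 0, and without Lyz2 the sums were 2979 to 3027 and 2955 to 2965. For 11 T and NK cell markers, led by Cd3e (8.54 and 8.51) and Cd8a (8.49 and 8.41), the sum was 2578 to 2736 and 2482 to 2559. Ncr1, named after its values were seen, was the only one of these 11 called (9.09%), with a log2 fold change of -0.23 (adjusted p = 0.0127). For 12 stromal markers, led by Col1a1 (9.66 and 9.57) and Col1a2 (9.18 and 9.07), the sum was 4196 to 4401 and 4073 to 4141. The groups were thus apart on each of these 4 sums, and no marker has a value of 0 on this scale. The part of these shifts in the members' changes was not tested, and in such bulk RNA fewer cells of a type and less RNA per cell cannot be told apart. The means of the 11 T and NK cell markers over the 6 arrays, 6.89 to 8.53, all lay below the medians of the arrays. Whether the T and NK, stromal and myeloid sums came from such cells or from background signal was not tested.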

How the data were processed

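Each of the 6 arrays gave 1 column of log2 expression values per probe set, as the authors deposited them. Per the submitters' processing notes, the tools were RMA and Partek 6.5, whose roles are not given there. The background setting and genome build are not given in the sources used here. The probe-level intensities were not used, so no probe set was called absent, and RMA-type summaries compress differences of dim genes. Precision is limited by having 3 arrays a group: the median SE of a log2 fold change was 0.0477.

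Of 35556 probe sets, 21789 had 1 gene symbol in the platform annotation, 1621 had several and 12146 were unlisted. Where a gene had several single-symbol probe sets, the one with the highest mean over the 6 arrays stood for it, leaving 19938 genes. Identifiers of 21698 probe sets were found in the GRCm38.p6 gene table, and 0 symbols changed. Differences were fitted on all 6 arrays with limma 3.58.1 (R 4.3.3; lmFit, then eBayes with no trend, Cre-ERT2 minus ERT2) and adjusted by Benjamini-Hochberg over all genes. Values are means with the SD of 3 arrays, and 95% intervals are limma's. On simulated data for this comparison of 19938 genes, 50 genes were given each size of change, with noise drawn from each gene's own SD. There, 56% of changes of 0.25, 86% of changes of 0.5 and 100% of changes of 1 (log2) were called. Fewer genes were changed than the data had calls, so these shares need not hold for the data.

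The members and all gene lists were chosen with earlier results of these data known. Every member was named, and from each other list up to 4 called genes of largest change, or the 2 of smallest p where none was called, with 10 family relatives fixed by name and the 2 markers of highest mean from each marker list. The alternatives were a replicate block, an intensity trend, array weights, quantile normalization, median centring, cyclic loess, a filter on the dimmest 30% of genes, averaging or separately testing a gene's probe sets, an adjusted p of 0.1, and each array left out in turn. The summed marker level adds the values after undoing the log2. Of the listed genes, 4 in the arrest list, 1 in the repair list, 5 relatives, 1 immediate early gene and 4 FOXO targets also stand in another list. Figures were drawn with matplotlib 3.10.9.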

Additional observations from a re-analysis of the deposited data

How the results depend on the processing

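Of 148 values of the 10 genes under the alternatives, 137 kept the direction and side of the threshold, 6 lost a call, all of Rrm2b, and 5 changed sign, all within 0.03 of 0: Ccng1 (-0.0011) and Phlda3 (-0.029) without Cre-ERT2 replicate 3, Phlda3 without ERT2 replicate 2 (-0.00025) and with array weights (-0.0073), and Eda2r after cyclic loess (0.010). With an array left out, Ccng1 ranged from -0.0011 to 0.047 and Phlda3 from -0.029 to 0.051. Each member has 1 single-symbol probe set, so the choice of probe set changed none of their values, and Plk2, Eda2r and Fas have no value with the dimmest 30% left out. Btg2, Trp53inp1, Zmat3 and Plk3 kept their calls under every alternative run. The replicate block, the intensity trend, the filter on dim genes and the threshold of 0.1 could not change a log2 fold change. The threshold of 0.1 could not remove a call either, so part of the 137 was fixed in advance.

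The labels do not say that replicate numbers pair the arrays, so the main fit had no replicate block. The deviations of arrays with the same replicate number correlated at 0.051, -0.095 and -0.26. Those of arrays with unlike numbers correlated between -0.29 (ERT2 replicate 2 with Cre-ERT2 replicate 1) and 0.31 (ERT2 replicate 2 with Cre-ERT2 replicate 3). With the replicate block, the calls were 805 over all genes (259 lower), 1 lower among the members (Plk3), 1 for the cell death targets (Trp53i11) and 3 for the relatives (Tnfrsf19, Trp53inp2 and Sesn2). The named genes whose calls the block removed were Rrm2b (adjusted p = 0.0736), Fas (0.0947), Rrm2 (0.0694), Sesn3 (0.0854) and Fosb (0.0703). Array weights gave 3339 calls over all genes (1315 higher, 2024 lower), 5 for repair and metabolism, 4 for the p53 regulators and 8 for the immediate early genes. An adjusted p of 0.1 gave 2271 (1190 lower), 3 regulators and 7 immediate early genes. An intensity trend gave 1 cell death target and 3 regulators, cyclic loess 1 cell death target, the dimmest 30% left out 1 cell death target and 2 regulators, and median centring 394 lower calls over all genes. With each array left out, calls ranged from 743 to 1341 over all genes (513 to 713 higher, 214 to 628 lower), 4 to 5 among the members (1 to 2 lower), 1 to 3 for arrest and feedback, 1 to 2 for cell death, 0 to 2 for repair and metabolism (the 0 by limma without Cre-ERT2 replicate 1, where 3 had an unadjusted p under 0.05), 2 to 4 for the relatives and 1 to 4 for the immediate early genes. Causes of these changes were not tested.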
